A study of Asparagus officinalis with 3 samples.

Results

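In the table of *Asparagus officinalis* miRNAs, 1 sequence and its extension carry unrelated names: aof-miR482, a 20-nt member of the conserved miR482 family, and aof-miRn39, a 22-nt candidate without a family name. The members were chosen by name as aof-miR482 and the listed miRNA that holds its whole sequence, and they are 2 of the 194 miRNAs listed. Garden asparagus is a dioecious crop, and the study compared small RNAs of male and female plants of the cultivar Grand. Leaves, roots, stems and flowers of 3-year-old greenhouse plants were collected, plants were pooled, and equal amounts of RNA from each organ were mixed, so that 1 small RNA library stood for each sex. A degradome library of both sexes together was not analysed here. As each sex had 1 library, no value below has a replicate error or a p-value, and a difference between the libraries cannot be told apart from a difference between the pools. As the organs were mixed, neither form can be assigned to an organ.

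The miR482 family and its relative miR2118 are among the older plant miRNA families. In many eudicots they pair with transcripts of NBS-LRR disease resistance genes at the stretch that encodes a conserved loop of the nucleotide-binding domain. The 22-nt forms are known there to start the production of phased secondary small interfering RNAs from the cut transcript, whereas shorter miRNAs usually guide cleavage alone. A plant miRNA cuts its target between the bases that face its positions 10 and 11, so pairing around these positions matters for cleavage.

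Both mature sequences are shown because the members differ only in length. They are written 5′ to 3′ as deposited, and the capitals mark the seed, bases 2 to 8.
aof-miR482: uUUCCAAUgccucccauucc
aof-miRn39: uUUCCAAUgccucccauuccgg
The same 22-nt sequence is given again with the bases that are absent from the shorter form in capitals.
aof-miRn39 extension: uuuccaaugccucccauuccGG
Both forms began with U, and G and C made up 50% of aof-miR482 and 54.5% of aof-miRn39. The 194 listed miRNAs held 95 different seeds, and the seed of the members was found in no other listed miRNA.

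aof-miRn39 was the abundant form in both libraries. It was listed at 109.06 RPM, the reads of this sequence scaled to the size of its library, in the female library and at 102.91 RPM in the male library. It ranked 31st and 26th of 194 by value, and 4th of the 22 listed miRNAs of 22 nt in both libraries. Among the 40 candidates without a family it ranked 3rd in both.

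The 20-nt form stood near the middle of the table. aof-miR482 was listed at 11.2 RPM in the female library and at 14.43 RPM in the male library, which placed it 101st and 82nd of 194. The 22-nt form exceeded it 9.74-fold in the female and 7.13-fold in the male library. Summed over both forms, the sequence reached 120.26 RPM in the female and 117.34 RPM in the male library, a female to male ratio of 1.02.

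Neither form passed a 2-fold difference between the sexes: 0 of 2 members, against 60 of 194 miRNAs (30.9%) in the whole table. The female to male ratio was 0.776 for aof-miR482 (log2 -0.37) and 1.06 for aof-miRn39 (log2 0.08). The ratio of aof-miRn39 turned from slightly female to slightly male when the libraries were rescaled by the median ratio of all miRNAs (log2 -0.09) or by the summed value of the table (log2 -0.08). The median log2 ratio of all miRNAs was 0.17, above that of both forms, and 52 of the 194 miRNAs had a lower ratio than aof-miR482.

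The low values of each library rose in even steps, of 0.229 RPM in the female and 0.157 RPM in the male library. Whether 1 step is 1 read was not established: 21 values of each library lay within 20 steps, and the library total that a step implies is somewhat larger than the number of final clean reads given by the study. On the premise that it is, aof-miR482 rested on 49 reads in the female and 92 in the male library, and aof-miRn39 on 477 and 656. Exact 95% intervals of these counts spanned 8.29 to 14.8 RPM and 11.6 to 17.7 RPM for aof-miR482, and 99.5 to 119 RPM and 95.2 to 111 RPM for aof-miRn39. The intervals of the sexes overlapped for each form, and those of the 2 forms lay far apart in each library. The interval of the female to male ratio was 0.537 to 1.11 for aof-miR482 and 0.940 to 1.19 for aof-miRn39. All these intervals cover counting error only and hold only under this premise.

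**Figure D1:**
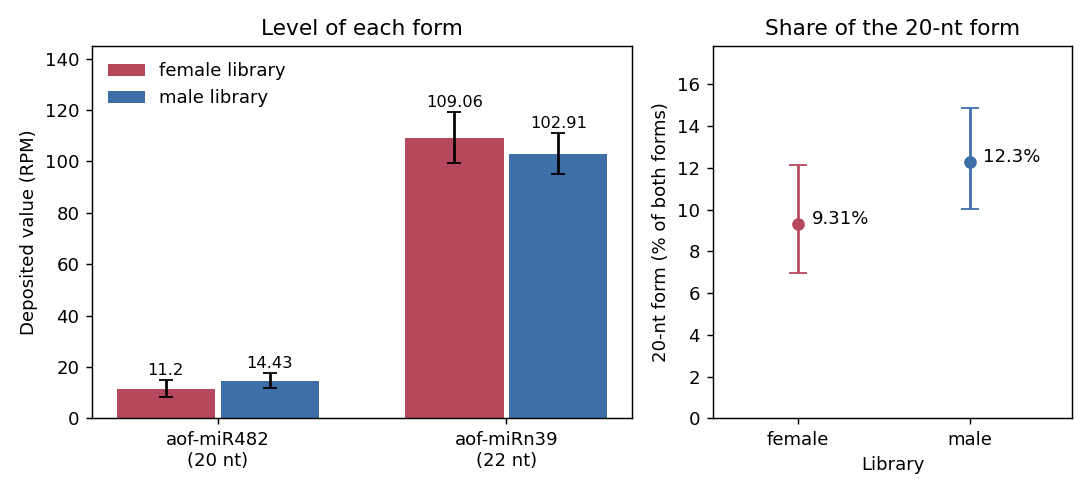
Left, the deposited value in RPM of aof-miR482 and aof-miRn39 in the female and the male library, as bars from 0. Right, the 20-nt form as a percentage of both forms in each library; the error bars are exact 95% intervals that cover counting error only, on the premise that 1 step is 1 read. The 22-nt bars stand near 109.06 and 102.91 RPM and the 20-nt bars near 11.2 and 14.43 RPM, and the intervals of the sexes overlap in every case.

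The balance between the forms does not depend on how a library was scaled. The 20-nt form made up 9.31% of the sum of both forms in the female library (interval 6.97 to 12.1%) and 12.3% in the male library (10.0 to 14.9%). The share was 2.98 percentage points higher in the male library, and the intervals overlapped. The odds of the 20-nt form were 1.36 times as high in the male library, with an exact conditional 95% interval of 0.935 to 2.01 for counting error under the same premise. The log2 ratio of aof-miR482 minus that of aof-miRn39 was -0.45.

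Pairs of listed miRNAs in which the longer one begins with the whole shorter one gave a frame for this balance. There were 64 such pairs. Besides the members, the longer form was higher in both libraries in 37 of 63 pairs and the shorter form in 20, and the order changed between libraries in 6. The shorter form took a median of 37.3% of the other pairs in the female and 35.0% in the male library. The share of the 20-nt form of miR482 was below these medians. Listing required at least 5 RPM in 1 library, which limits how small this share can be in pairs of low summed value. The pairs next above and below miR482 in summed value also had low shares. They were 15.4% in the female and 15.6% in the male library for aof-miR319a in aof-miR319c, and 18.0% and 12.2% for aof-miR408a in aof-miR408b. A small share is thus not particular to miR482. The shift of the miR482 pair between the libraries was within the usual range, as 34 of the other 63 pairs shifted by more percentage points. The shorter form had the larger share in the male library in 30 of these pairs and the smaller in 33. Pairs of 1 family share members, so these counts are not of independent pairs.

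The members differed from the other pairs in how they were listed. Theirs was the only one of the 64 pairs whose forms carried different family assignments, a conserved family for the shorter and none for the longer form. In 11 pairs the forms were 2 nt apart. In each of the other 10 the form of intermediate length was listed too, whereas no 21-nt form stood between aof-miR482 and aof-miRn39. Since the table kept sequences with at least 5 RPM in 1 library, this says that a 21-nt form was not listed, not that it was absent. The 3 pairs of highest summed value all belonged to the miR166 family, whose members target transcripts of class III HD-ZIP transcription factors: aof-miR166f-1 in aof-miR166d-1, aof-miR166d-1 in aof-miR166m-2, and aof-miR166f-4 in aof-miR166g-3p.

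**Figure D2:**
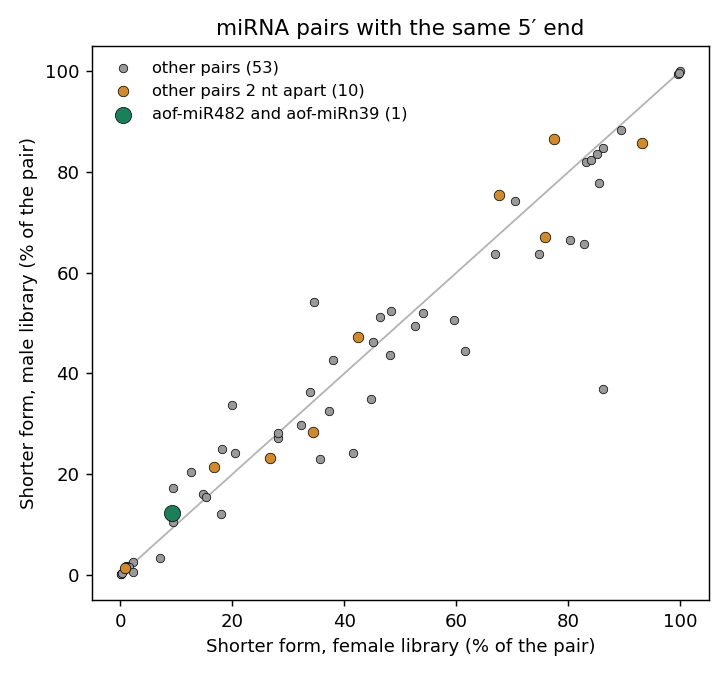
Each point is a pair of listed miRNAs with the same 5′ end, placed by the percentage that the shorter form takes of the pair in the female (x axis) and the male library (y axis); the line marks equal shares. The pair of aof-miR482 and aof-miRn39 lies at 9.31% and 12.3%, at the low end and close to the line.

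The nearest listed sequence was another 22-nt candidate, aof-miRn38. It is shown with the bases that equal aof-miRn39 at the same position, counted from the 5′ end, in capitals.
aof-miRn38: UUgCCuAcuCCgCCCAUUCCcc
The capitals cover 15 of 22 positions, including all of positions 13 to 20, while the seeds differ. The 8-base stretch at positions 13 to 20 occurred in 3 listed miRNAs, which are the members and aof-miRn38. The next miRNAs, aof-miR393c and aof-miR394, equalled aof-miRn39 at 11 positions, and the median over the other miRNAs was 6. aof-miRn38 was listed at 251.74 RPM in the female library and at 222.75 RPM in the male library. Its ratio of 1.13 was close to the median ratio of the table, as was that of aof-miRn39.

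Listed precursors of both forms came from the same unigenes, UN16232 and UN17918. Both hairpins listed for aof-miRn39 are shown, with the bases of the miRNA in capitals, because they show where the 3′ G bases come from.
UN16232 hairpin: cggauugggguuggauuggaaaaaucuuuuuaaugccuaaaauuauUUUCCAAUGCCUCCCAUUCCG
UN17918 hairpin: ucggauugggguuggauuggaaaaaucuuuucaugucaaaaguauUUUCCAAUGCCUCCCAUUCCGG
Both are 67 nt long and carry the miRNA at the end of the 3′ arm. The paper's text instead assigns UN16232 to the 5′ arm, under the name aof-miRn31, and lists this precursor on the minus strand of the unigene. In UN17918 all 22 bases of aof-miRn39 were found, so both extra G bases are encoded there. In UN16232 the listed hairpin ended after 21 bases, and the last G was not checked here. The UN16232 hairpin listed for aof-miR482 likewise ended early, after 19 of its 20 bases. The hairpins of aof-miRn39 shared runs of 30 nt in the 5′ arm and 24 nt in the 3′ arm and differed in the loop between them.

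Both precursors folded into a single stem. RNAfold gave a minimum free energy of -23.5 kcal/mol for UN16232 and -27.5 kcal/mol for UN17918. The minimal folding free energy index, which corrects the energy for length and base composition, was 0.904 and 0.982. In UN17918, 19 of the 22 miRNA bases were paired, and positions 9, 17 and 22 were not. In UN16232, positions 9 and 17 were again the unpaired ones. The shorter precursors listed for aof-miR482, of 63 nt, also left positions 9 and 17 unpaired and folded at -17.8 and -23.6 kcal/mol.

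The forms differed in how many targets were listed. The target table paired aof-miR482 with 10 unigenes and aof-miRn39 with 6, and all 6 were among the 10. The shared unigenes were thus 60% of the list of the shorter form and 100% of that of the longer form. The median miRNA with targets had 2, and 6 of 194 miRNAs had 10 or more. These targets were treated as predictions from complementarity, since the table holds alignments without reads and its program is not known. No other listed miRNA was paired with any of the 10 unigenes. From its degradome library the paper does report target genes of aof-miRn39, including a subunit of the mediator of RNA polymerase transcription. It also names miR482 among the miRNAs with multiple targets. Whether any of the 10 unigenes is among those degradome targets was not checked here.

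The closest sites, with a score up to 2.5 for aof-miR482 and listed for both forms, are shown because they carry the comparison between the forms. UN18109 was listed for aof-miR482 alone and is named only because it has the same 20-nt site as UN48349 and UN26432. They are stretches of the unigenes, written 5′ to 3′, so that the right end faces position 1 of the miRNA. Capitals mark bases that do not form a Watson-Crick pair.
UN24718 and UN22259 with aof-miR482: ggaUugggaggcauuggaaa
UN24718 and UN22259 with aof-miRn39: UUggaUugggaggcauuggaaa
UN24668 with aof-miR482: ggaUugggaggUauuggaaa
UN24668 with aof-miRn39: cUggaUugggaggUauuggaaa
UN33041 with aof-miR482: ggGUugggaggUauuggaaa
UN33041 with aof-miRn39: cUggGUugggaggUauuggaaa
UN48349, UN26432 and UN18109 with aof-miR482: ggaUugggaggUUuuggaaa
UN48349 and UN26432 with aof-miRn39: UcggaUugggaggUUuuggaaa
The score of an alignment adds 1 for each mismatch and 0.5 for each G:U wobble. Between sites of equal length, a lower score therefore means closer pairing. UN24718 and UN22259 carried the same site, at bases 96 to 115 and 539 to 558 of the unigenes, and scored 1 with aof-miR482, from a single mismatch at position 17. UN24668 (bases 174 to 193) added a wobble at position 9 and scored 1.5. UN33041 (bases 124 to 143) scored 2. The site shared by UN48349, UN26432 and UN18109 had a further mismatch at position 8 and scored 2.5.

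The score of the longer form was higher in all 6 shared unigenes. The first 20 positions were aligned alike for both forms, so the extra bases could only keep or raise the score. The higher score is thus no sign of weaker pairing. UN24718 and UN22259 went from 1 to 2, since both extra G bases faced U and made wobbles. UN24668 went from 1.5 to 2, UN33041 from 2 to 2.5, and UN48349 and UN26432 from 2.5 to 3. In these 4 unigenes 1 of the extra bases made a Watson-Crick pair and the other a wobble, and no extra base made a mismatch. In the other nested pairs the longer form had the higher score in 60 of 123 shared targets, the same score in 62 and a lower score in 1.

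The 4 unigenes listed for aof-miR482 alone stood close to the highest score in the table, which was 3. Such scores were common, as the median of all 463 listed pairs was 2.5 and 185 pairs scored 3. UN48349 and UN26432, which were listed for both forms, also scored 2.5 with aof-miR482. UN18109 and UN06769 scored 2.5, and UN35337 and UN23611 scored 3. UN18109 has the 20-nt site of UN48349, whose score with the longer form was 3, yet it was not listed for aof-miRn39. The bases beyond the 20-nt site of these 4 unigenes were not used here. Fewer targets for the longer form were usual, as the longer form had fewer in 45 of the 59 other nested pairs with targets for the shorter form. A longer form has more positions that can add a penalty, so its shorter list is no result about its pairing.

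**Figure D3:**
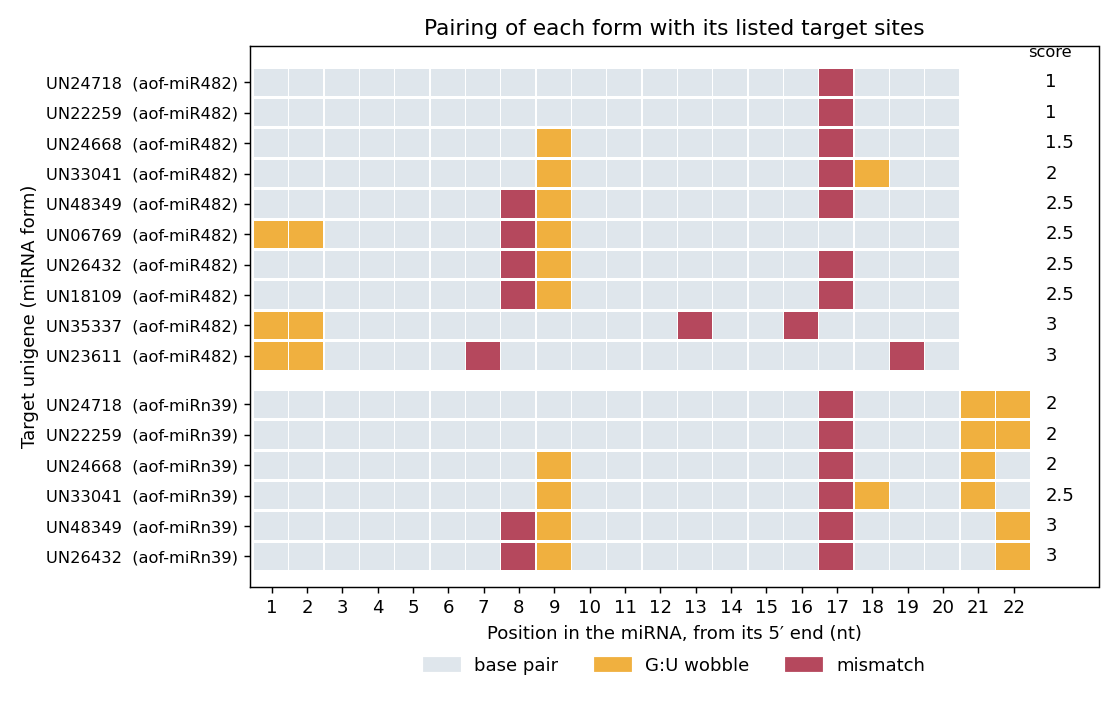
Each line is a target unigene of aof-miR482 (upper 10) or aof-miRn39 (lower 6), and each cell is a miRNA position from the 5′ end, coloured as base pair, G:U wobble or mismatch; the number on the right is the deposited score. Positions 10 and 11 are paired in every line, position 17 is a mismatch in 7 of the upper and all 6 lower lines, and the wobbles at positions 21 and 22 occur only in the lower lines.

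Positions 10 and 11 were paired in all 10 sites of aof-miR482 and all 6 of aof-miRn39. The mismatch at position 17 occurred in 7 of 10 and in 6 of 6 sites, and a wobble at position 9 in 6 of 10 and in 4 of 6. The shares of these states over all listed pairs are not given here. Whether the listing itself required pairing at positions 10 and 11 is not known. Positions 9 and 17 were also unpaired in both hairpins of aof-miRn39, and position 22 in that of UN17918. Position 8 was mismatched in 4 of 10 and in 2 of 6 sites but paired in these hairpins. This likeness of positions was not tested. The seed was free of mismatches and wobbles in 4 sites of each form. The 10 unigenes carried 7 distinct 20-nt sites, so sites with the same sequence are not separate observations of a pairing pattern.

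No listed target of either form was described as a resistance protein. Of the 10 unigenes, 6 had no protein hit, against 84 of 194 unigenes (43.3%) in the whole table. For these 6 the descriptions cannot tell whether a resistance protein is encoded, and no translation of the sites was examined. UN22259 resembled a conserved hypothetical protein of castor bean (*Ricinus communis*). The other descriptions belonged to unigenes listed for aof-miR482 alone. UN06769 resembled ribosomal protein L32, a component of the large ribosomal subunit, and UN35337 a polygalacturonase, an enzyme that cleaves pectin in the cell wall. UN23611 resembled QUASIMODO1, a glycosyltransferase needed for pectin synthesis in *Arabidopsis*. The sites in UN06769, UN23611 and UN26432 lay on the minus strand of the unigene, as did 41.3% of all listed pairs, and the coding strand of unigenes without a hit is not known. Among all target unigenes, 1 matched a search for resistance or leucine-rich repeat descriptions, and it was described as a brassinosteroid receptor kinase paired with another miRNA.

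Other 22-nt miRNAs gave a comparison by length. Of the 22 listed, 1 was over 2-fold higher in female plants and 4 in male plants, against 35 (18.0%) and 25 (12.9%) of all 194. These 5 miRNAs became 2 with a pseudocount of 5 or a minimum of 10 RPM. The median log2 ratio was -0.07 against 0.17 over all miRNAs. They ranged from -2.14 for aof-miR408c, of a family that targets copper protein transcripts, to 2.06 for aof-miR393b, of a family that targets auxin receptor transcripts. aof-miRn39 lay near the middle of this range.

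**Figure D4:**
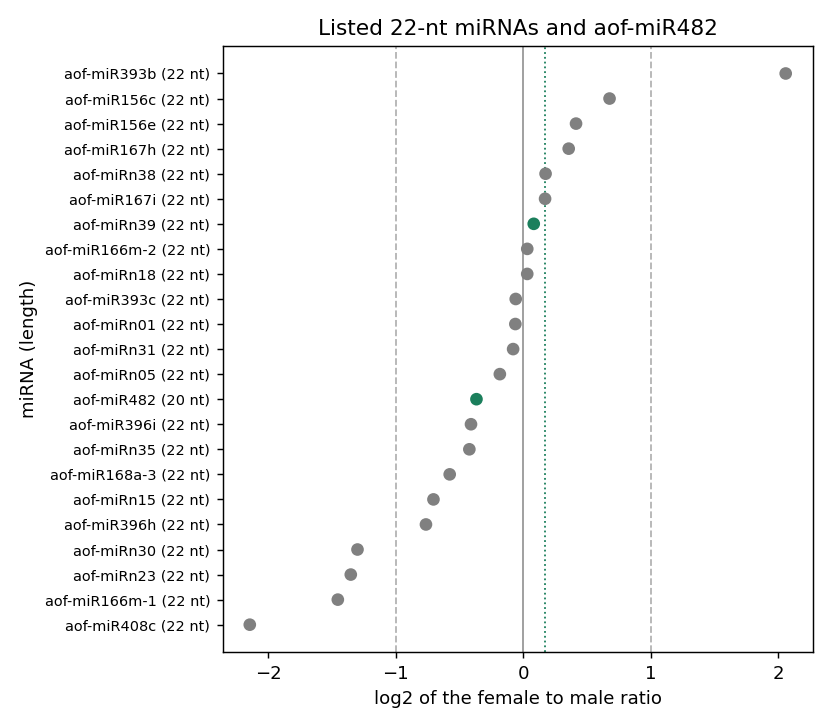
The log2 of the female to male ratio (x axis) for each listed 22-nt miRNA and for aof-miR482 (y axis, ordered by ratio), with the members in green; dashed lines mark a 2-fold difference and the dotted line the median of all miRNAs. aof-miRn39 at 0.08 and aof-miR482 at -0.37 lie between the dashed lines, and the ends of the range are -2.14 and 2.06.

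Of 11 families known from other plants to start secondary small RNAs, 3 were listed: miR390, which starts the trans-acting siRNAs against auxin response factors, miR393 and miR482. With aof-miRn39 they gave 7 miRNAs. Of these, 4 were over 2-fold higher in female plants and 0 in male plants, against 35 (18.0%) and 25 (12.9%) of all 194, and the median log2 ratio was 1.22. The 4 became 2 with a pseudocount of 5 or a minimum of 10 RPM. They are length variants of only 2 sequences, aof-miR390a with aof-miR390c and aof-miR393a with aof-miR393b, so they are not separate observations. aof-miR390a was listed at 332.68 RPM in the female and 94.91 RPM in the male library, and aof-miR393b at 37.95 and 9.1 RPM. The female-high miRNAs were all of miR390 and miR393, while aof-miR482, aof-miRn39 and aof-miR393c (6.63 and 6.9 RPM) were within 2-fold.

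The listed miRNAs nearest to each member in log2 ratio were sought among those within 2-fold of its mean value, a likeness that rests on 2 libraries. Of 84 such miRNAs, the nearest to aof-miR482 were aof-miR166e-3 at 7.32 RPM in the female and 9.41 RPM in the male library, aof-miRn32 at 7.77 and 9.88 RPM, and aof-miR319b at 10.52 and 13.8 RPM. Of 17 such miRNAs, the nearest to aof-miRn39 were aof-miR156j at 93.29 and 92.08 RPM, aof-miR167i at 119.35 and 105.89 RPM, and aof-miR827d at 175.83 and 180.09 RPM. Their direction follows from this choice and is no result.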

How the data were processed

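Small RNA reads of 1 male and 1 female library were processed by the authors: adapters were trimmed, poor or short reads and structural RNAs were discarded, and sequences of 20 to 24 nt with at least 5 RPM in 1 library were kept. The authors deposited RPM values, which they call TPM, and these are not divided by length. The deposited target table gives a penalty score per alignment, the site in the unigene and the e value, treated as a p-value column, of the best protein hit, which was not used. The program behind this table is not given in the sources used here. Ratios were computed without a pseudocount, and over 2-fold apart was called. Steps were searched in values up to 60 RPM with a tolerance of 0.0051 RPM: 99.4% of 157 female and 99.4% of 162 male values were whole multiples. With 21 values per library within 20 steps, under the 100 required, reads were not taken as recovered and no count test was run. Step counts were used only for intervals that hold if 1 step is 1 read. Sequences of precursors came from the supplementary tables and were folded with RNAfold 2.7.2. Python 3.11.15, pandas 2.3.3 and scipy 1.17.1 were used, and the steps were tested on simulated data. Named miRNAs were the members, the 3 nearest in ratio to each, the nearest sequence, the 3 nested pairs of highest value and all targets of the members. Those of the 22-nt and trigger lists were named after their values were seen. Members and lists were chosen with earlier results of these data known. Alternatives were pseudocounts of 1 and 5, a minimum of 10 RPM, rescaling, stricter scores and other folding settings. There were 0 columns of unmapped samples.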

Additional observations from a re-analysis of the deposited data

How the results depend on the processing

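Of 41 alternative values for 16 results, 33 stayed within the counting interval or within 1.5 times the count. Changes of direction were not scored. The female to male ratio of aof-miRn39 turned from slightly female to slightly male under both rescalings. It became 0.939 with rescaling by the median ratio, just outside its counting interval, and 0.949 with rescaling by the summed value. The number of miRNAs over 2-fold apart fell from 60 to 34 with a minimum of 10 RPM and to 32 with a pseudocount of 5, that of 22-nt miRNAs from 5 to 2 under both, and that of the trigger list from 4 to 2 under both. Neither member passed 2-fold under any alternative. Of the 64 nested pairs, 11 were 2 nt apart. At scores up to the median of 2.5, aof-miR482 had 8 target unigenes and aof-miRn39 had 4, all shared. Without dangling-end energies 20 bases of aof-miRn39 were paired in UN17918. No paired analysis was possible because there was 1 library per sex, and no library could be left out for the same reason. Depth limits aof-miR482 most, with 49 steps in the female library.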

Other observations

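In miR167, a family that targets transcripts of auxin response factors, 1 of the listed pairs of 20 nt and 22 nt stood in nearly the same proportion as miR482, and another with the same 20-nt form did not. aof-miR167a (20 nt) was listed at 12.58 RPM in the female and 15.06 RPM in the male library, and aof-miR167i (22 nt), which begins with it, at 119.35 and 105.89 RPM. The shorter form took 9.54% of that pair in female and 12.5% in male plants. Against aof-miR167h, a more abundant 22-nt form that also begins with aof-miR167a and was listed at 1430.62 and 1116.28 RPM, it took 0.872% and 1.33%. In contrast to miR482, an intermediate 21-nt form was listed, aof-miR167d, at 20.58 and 20.24 RPM. These pairs were chosen after its values were seen.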
